A study of Drosophila ananassae with 54 samples.

Results

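The 40 genes described here averaged under 5 CPM (normalised read counts) in Malpighian tubules of cold-acclimated Drosophila ananassae. They were chosen by their measured levels. CPM is the count of a gene divided by the total count of its library and scaled to 1e6 counts. A gene qualified with a mean of 5 to 50 CPM over the 9 control tubule libraries, a mean under 5 CPM over the 9 cold tubule libraries, and a lower cold-against-control ratio in tubule than in hindgut or body. That ratio, called D below, is log2 of (cold mean CPM + 0.5) over (control mean CPM + 0.5). Of 14365 genes in the deposited table, 122 met every condition, and the 40 with the lowest D in tubule are the members. The level of a member in cold and control tubule, and the rank of its D against hindgut and body, are therefore descriptions of how it was picked, and no test of cold against control is given.

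Malpighian tubules are the excretory organs of insects. They secrete a primary urine by moving ions and water from the hemolymph into a tube that empties at the junction of midgut and hindgut, and the hindgut then reabsorbs part of that fluid. In chilled insects the balance of ions and water between gut and hemolymph is commonly disturbed, which is why both organs are studied in cold acclimation. The files pair each gene only with an identifier, a scaffold and a length, and none of the identifiers matched the reference gene table (0 matches), so neither functions of the members nor the levels of known tubule markers can be given.

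The study sequenced poly-A RNA of adult males of 3 lines, and each line was itself a mixture of isofemale lines. FastBKK (4 isofemale lines) and SlowBKK (4 isofemale lines) come from Bangkok and are labelled cold tolerant and cold sensitive, and KATH (3 isofemale lines) comes from Kathmandu and is labelled tolerant. Cold flies spent 4 days at 10 °C from the day after eclosion and then recovered for 90 min, so a cold value covers acclimation and recovery together, and control flies spent the 4 days at 22 °C. Malpighian tubules and hindguts of 60 individuals were pooled per library and extracted with an RNeasy kit, and bodies of 10 individuals with a MasterPure kit. There were 54 libraries in 18 groups of 3, with 30.7 to 48.8 M counts each (median 34.3 M) and 32.9 to 48.8 M in tubule, where 3 counts were worth 0.0615 to 0.0913 CPM. Body and dissected organs differed in kit and in number of individuals, so levels across tissues are set side by side without a test, and in pooled tissue fewer cells of a type and less RNA per cell cannot be told apart.

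The label of near silencing did not hold for every member. It rested on 1 library for 17 of them, and of the other 23, GF26286 and GF12353 were lower in the cold without overlap in 1 line each, as described below. The label is loose for others of the 23, such as GF24516, which still averaged 4.93 CPM in the cold against 20.2 CPM in control, and GF17900, at 4.15 against 29.1 CPM. The KATH control tubule replicate 1 library (33.4 M counts) stood apart: each of those 17 genes had its highest control tubule level there, at 47.6 to 358 CPM (median 114), and this library supplied 65.1% to 95.7% of the summed level of the 9 control libraries (median 91.2%). When the selection was repeated without it, 23 members were selected again and 17 were not, while 17 other genes with D of -1.80 to -1.30 took their places. The 23 genes are described first and with most detail, and each result is given with and without that library where it matters.

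**Figure D1:**
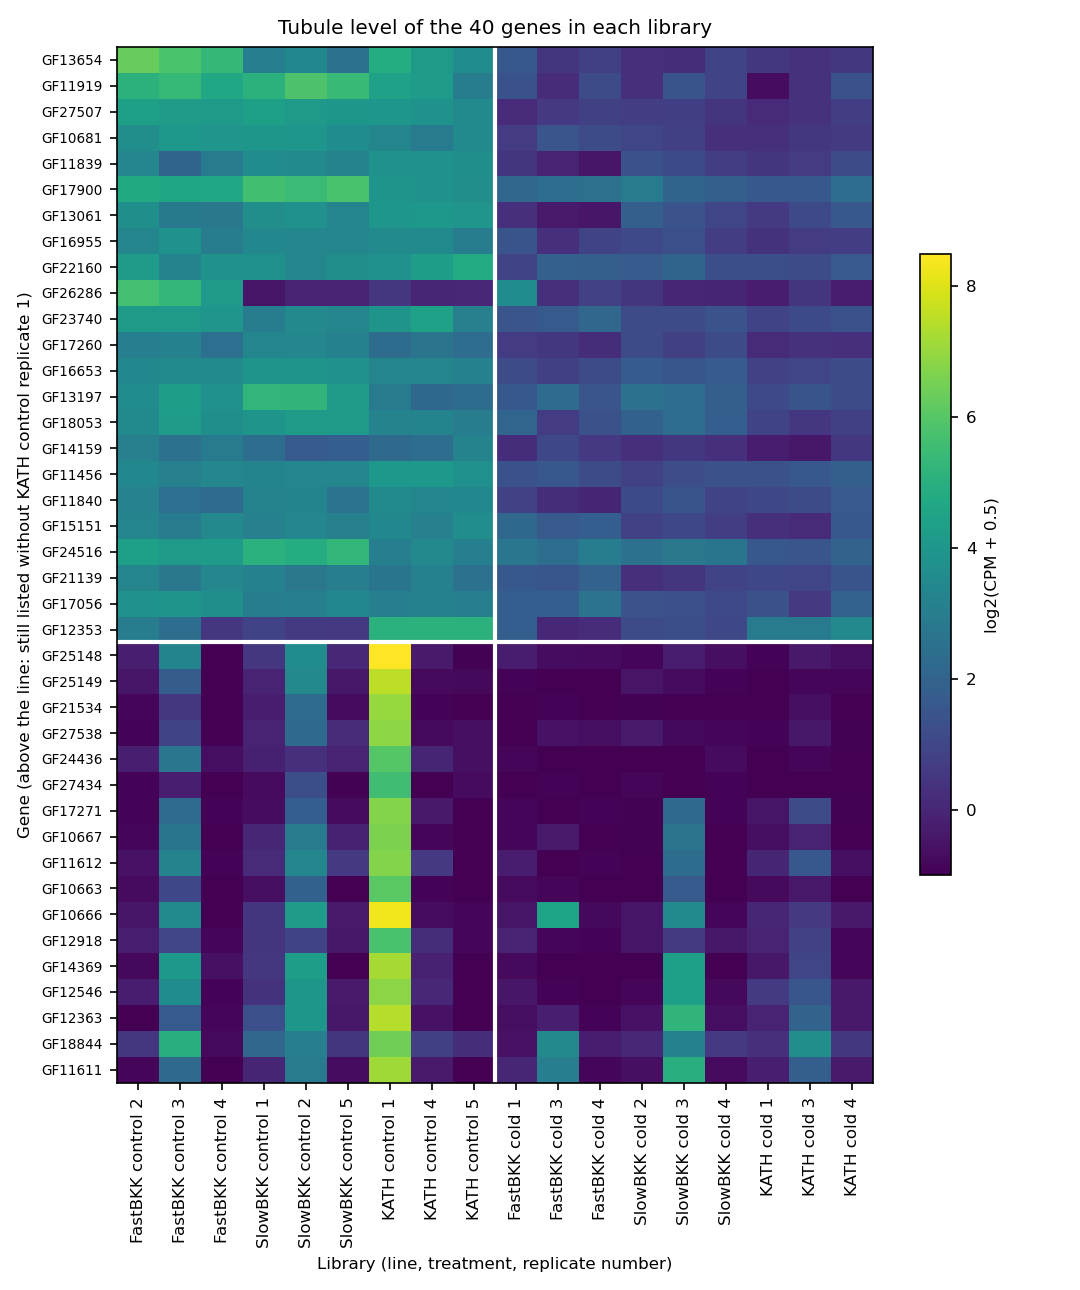
Level of each of the 40 genes (rows) in each of the 18 tubule libraries (columns), as log2(CPM + 0.5) in colour. Of the 23 genes above the horizontal line, 21 are lower in the cold libraries of every line, GF26286 and GF12353 are not, and the 17 below it are bright mainly in the column of KATH control replicate 1.

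**Figure D2:**
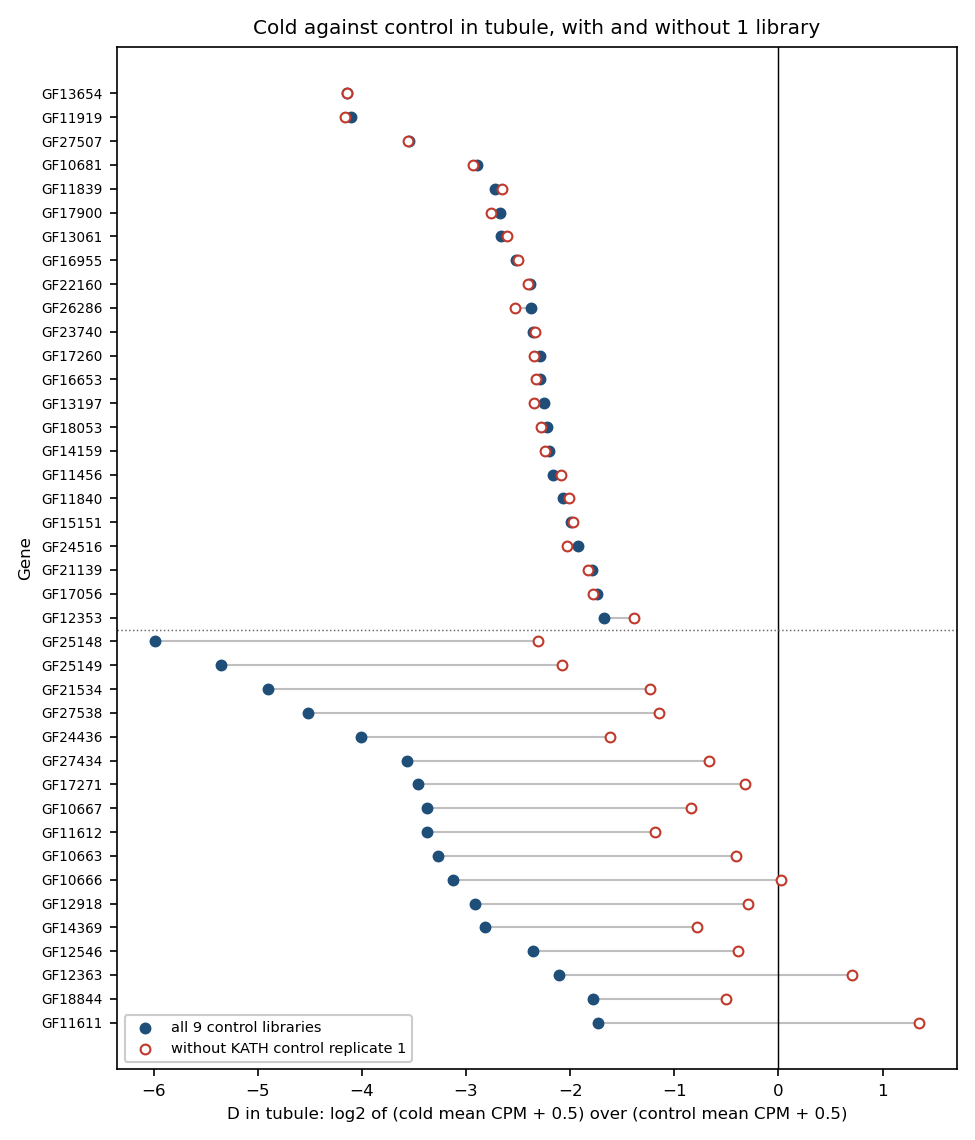
D in tubule (log2 ratio of cold to control mean CPM, each with 0.5 added) for each gene, with all 9 control libraries (filled) and without KATH control replicate 1 (open). The 23 genes above the dotted line moved little, between -4.16 and -1.39 without the library, while the 17 below it moved to between -2.31 and 1.35.

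Over all 40 members D in tubule ran from -5.98 to -1.67 with a median of -2.59, beside a median of 0.26 over the 3801 genes with 5 to 50 CPM in control tubule. Scaling the libraries by trimmed mean of M values (TMM), which moved the median D of genes at 1 CPM or more from 0.21 to -0.01 in tubule, left every member at -1.88 or lower. GF11611 and GF12353 closed the list at -1.73 and -1.67, and GF12015 and GF14981 just missed it at -1.65 and -1.64, so the list ends in a continuum and not at a gap.

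Among the 23 genes, mean control levels lay between 5.51 and 31.0 CPM (median 12.02) and mean cold levels between 0.802 and 4.93 CPM (median 1.91). Their D ranged from -4.15 to -1.67 with a median of -2.29, and the median without KATH control replicate 1 was -2.35. In 20 of the 23, all 9 cold libraries lay below all 9 control libraries, a pattern found in 6.97% of the genes at 1 CPM or more in tubule. The selection used these libraries, so that share is given for scale only. The exceptions were GF26286, GF12353 and GF13197.

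GF13654 (scaffold_13266) had the lowest D of the 23. Its control tubule levels were 76.4, 54.9 and 39.2 CPM in FastBKK, 7.97, 10.4 and 5.40 CPM in SlowBKK, and 28.8, 17.6 and 11.3 CPM in KATH. Its cold levels were 2.50, 0.852 and 1.22 CPM in FastBKK, 0.703, 0.669 and 1.38 CPM in SlowBKK, and 0.933, 0.773 and 0.943 CPM in KATH. The control libraries thus spread over an order of magnitude between lines while the cold libraries of all 3 lines sat near 1 CPM, and D was lowest in FastBKK (-4.82), next in KATH (-3.83) and highest in SlowBKK (-2.57). Outside the tubule it was not lower in the cold: mean levels were 8.16 CPM in control and 12.8 CPM in cold hindgut, and 11.5 CPM and 21.8 CPM in body. The body values differed by line, with 5.89 to 6.499 CPM in KATH control against 21.2 to 27.0 CPM in KATH cold, 4.68 to 14.2 against 23.2 to 28.8 CPM in SlowBKK, and 18.1 to 20.4 against 13.9 to 18.7 CPM in FastBKK.

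GF11919 (scaffold_13266) had nearly the same D, -4.10. Its control libraries read 34.1, 40.6 and 25.4 CPM in FastBKK, 33.8, 56.1 and 42.5 CPM in SlowBKK, and 20.8, 18.3 and 7.35 CPM in KATH. In the cold it read 2.14, 0.639 and 1.77 CPM in FastBKK, 0.730, 2.25 and 1.43 CPM in SlowBKK, and 0.117, 0.773 and 2.13 CPM in KATH. Control and cold libraries were separated in every line, with the lowest control value in KATH. Its control level was 1.47 CPM in hindgut and 5.13 CPM in body, with D of 0.20 and 0.36.

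GF27507 (scaffold_13280) was the most even of the leading genes. Control tubule libraries held 20.6, 18.3 and 16.9 CPM in FastBKK, 20.3, 16.7 and 15.6 CPM in SlowBKK, and 15.5, 13.9 and 10.9 CPM in KATH. Cold tubule libraries held 0.584, 0.974 and 1.25 CPM in FastBKK, 1.15, 1.20 and 0.866 CPM in SlowBKK, and 0.613, 0.773 and 1.17 CPM in KATH. All 9 cold values were within a narrow band and D was -3.73, -3.52 and -3.36 in the 3 lines. This gene was also low in the other cold tissues, from a mean of 20.6 to 2.39 CPM in hindgut (D -2.87) and from 16.2 to 5.64 CPM in body (D -1.44), with no overlap between the 9 cold and 9 control libraries of either tissue. It had the lowest hindgut D among the 23.

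GF10681 (scaffold_13337) followed with a D of -2.90, from control levels of 6.76 to 16.1 CPM (median 12.4) to cold levels of 0.729 to 2.31 CPM (median 1.06). It too was lower in cold hindgut, at 34.8 CPM in control and 13.2 CPM in cold (D -1.36). GF17900 (scaffold_13340), at 29.1 and 4.15 CPM, had a D of -2.67 in tubule and -0.30 in hindgut.

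GF11839, GF13061 and GF11840, all on scaffold_13266, had mean levels above 1 CPM only in tubule. GF11839 and GF11840 carry consecutive symbols, and whether reads of near-identical neighbours were split in counting was not checked. GF11839 measured 10.0, 3.65 and 6.82 CPM in FastBKK control tubule, 11.4, 10.95 and 8.86 CPM in SlowBKK and 14.3, 13.6 and 12.7 CPM in KATH. In cold tubule it measured 0.835, 0.426 and 0.249 CPM in FastBKK, 2.14, 1.71 and 1.16 CPM in SlowBKK, and 0.875, 1.06 and 1.72 CPM in KATH. The order of the libraries was much alike in the other 2 genes: FastBKK replicates 3 and 4 were the lowest of the control libraries and also of the cold ones for each of the 3 genes, and the 3 KATH libraries were the highest control libraries.
GF13061 had means of 11.9 CPM in control and 1.47 CPM in cold tubule (D -2.66), and GF11840 had means of 8.11 and 1.55 CPM (D -2.07). Every control hindgut library held at most 3 counts of each of these genes, with a mean of 0.00617 CPM for GF11839, 0.0189 CPM for GF13061 and 0.00624 CPM for GF11840. Their control body means were 0.307, 0.485 and 0.420 CPM, and the cold body means were 0.0738, 0.194 and 0.170 CPM, with cold and control libraries overlapping. Because they were at the detection floor in hindgut, a fall with cold could not have been detected there.

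The remaining genes of the 23 without overlap in tubule were GF16955, GF22160, GF23740, GF17260, GF16653, GF18053, GF14159, GF11456, GF15151, GF24516, GF21139 and GF17056, whose D lay between -2.52 (GF16955) and -1.74 (GF17056). Per kilobase of gene length, GF13654 had the highest control tubule level of the 23 at 23.2 CPM per kb, followed by GF17900 at 18.2 and GF16955 at 14.9 CPM per kb, and the lowest were GF17056 at 2.15 and GF12353 at 2.40 CPM per kb. The 23 genes had a median length of 1616 bases, against 1495 bases over all genes in the table.

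Read by line, cold and control tubule libraries were separated in all 3 lines for 21 of the 23 genes. FastBKK separated 22 of the genes (17.6% of all genes at 1 CPM or more had all 3 cold below all 3 control libraries), SlowBKK 21 (19.9%) and KATH 22 (21.0%). The members were picked on these same libraries, so the shares are given for scale only. Median D was -2.34 in FastBKK, -2.24 in SlowBKK and -2.41 in KATH. Thus 21 genes were lower in the cold in the sensitive line as well as in both tolerant ones.

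GF26286 (scaffold_13337) and GF12353 (scaffold_13266) entered the list through 1 line each. GF26286 read 49.9, 38.6 and 16.6 CPM in FastBKK control tubule and 11.9, 0.700 and 1.27 CPM in FastBKK cold tubule. In SlowBKK it stood at 0.225, 0.429 and 0.433 CPM in control and 0.834, 0.509 and 0.487 CPM in cold, and in KATH at 0.897, 0.517 and 0.547 CPM in control and 0.321, 0.858 and 0.349 CPM in cold. It was therefore already under 1 CPM in control tubule of the other lines, and its D was -2.80 in FastBKK, 0.36 in SlowBKK and -0.19 in KATH.
GF12353 read 32.6, 34.0 and 34.1 CPM in KATH control tubule and 6.85, 6.84 and 10.6 CPM in KATH cold tubule. In FastBKK the control values were 7.64, 4.88 and 0.899 CPM and the cold values 3.06, 0.548 and 0.637 CPM, which overlap. In SlowBKK the control values of 1.37, 1.04 and 0.993 CPM lay below the cold values of 1.75, 1.90 and 1.52 CPM. D of GF12353 was -1.38 in FastBKK, 0.44 in SlowBKK and -1.98 in KATH. GF13197 (scaffold_13266) was separated within each line, and overlapped only across lines because KATH control (7.27, 3.99 and 4.67 CPM) reached down to SlowBKK cold (5.24, 4.85 and 3.17 CPM).

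**Figure D3:**
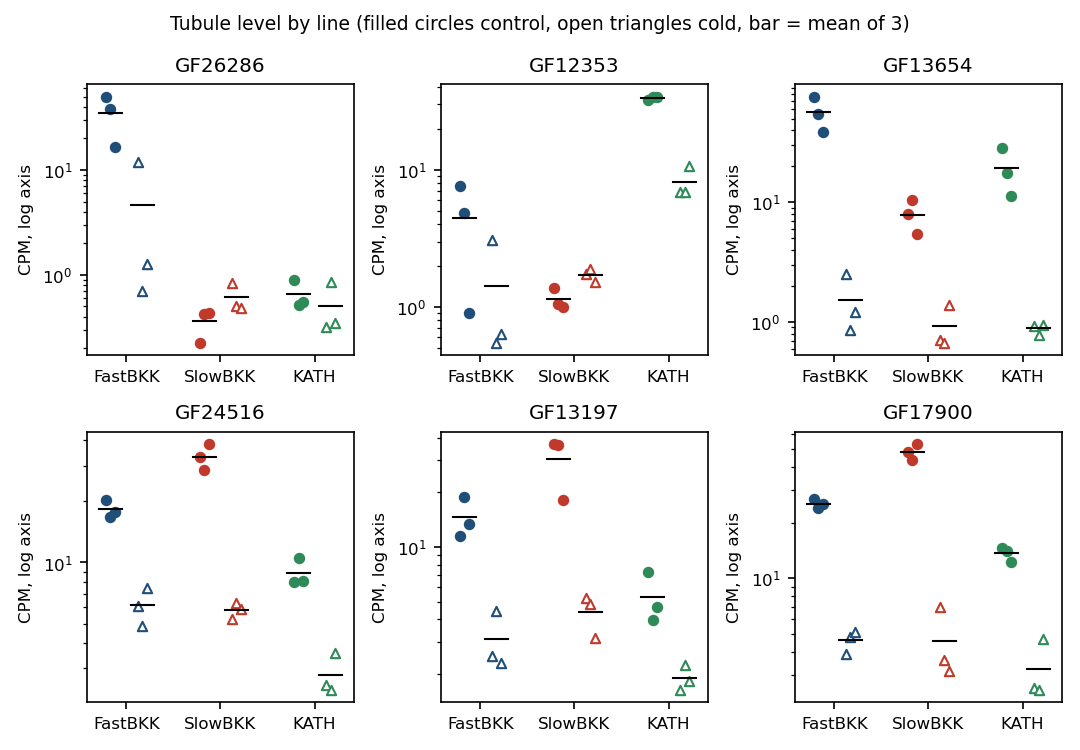
Tubule CPM (log axis) of 6 genes in each line, with filled circles for control libraries, open triangles for cold libraries and a bar at the mean of 3. GF26286 was highest in FastBKK control and GF12353 in KATH control, while the other 4 genes differed in control level between lines and were lower in the cold in each.

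In hindgut the 23 genes had D between -2.87 and 0.82 with a median of -0.30. All 9 cold libraries lay below all 9 control libraries for 5 genes (GF27507, GF10681, GF16653, GF11456 and GF24516), against 6.28% of genes at 1 CPM or more, and above them for 1 gene, GF17056, against 28.3%. Of the 5, GF24516 was near the floor in hindgut, with means of 0.633 CPM in control and 0.0687 CPM in cold, and lies outside the genes behind that share. GF17056 was thus opposite in the 2 organs: its tubule means were 10.1 CPM in control and 2.68 CPM in cold, and its hindgut means 14.9 CPM and 26.7 CPM. In hindgut it measured 12.1, 9.90 and 12.8 CPM in FastBKK control against 19.2, 21.9 and 19.99 CPM in FastBKK cold, 18.6, 17.7 and 17.5 against 39.2, 36.7 and 23.6 CPM in SlowBKK, and 18.3, 12.3 and 15.1 against 24.8, 26.3 and 28.7 CPM in KATH. TMM scaling moved the median D of genes at 1 CPM or more in hindgut from 0.29 to -0.01, so a hindgut D near 0 on the CPM scale lies below the typical gene.

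In body the 23 genes had D between -1.49 and 0.89 with a median of -0.39. The 9 cold libraries lay below the 9 control libraries for 5 genes (GF27507, GF22160, GF17260, GF16653 and GF11456), against 9.3% of genes at 1 CPM or more, and above them for 0 genes, against 13.7%. GF27507, GF16653 and GF11456 were thus lower in all 3 cold tissues without overlap.

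Levels in control tissues placed the 23 genes in different company. Mean control hindgut levels ran from 0.00617 to 63.3 CPM and mean control body levels from 0.307 to 856 CPM. In 9 of 23 the hindgut mean was above the tubule mean, and GF11456 was the highest in hindgut at 63.3 CPM against 11.4 CPM in tubule. In 7 genes the hindgut mean was under 1 CPM, and in 3 the body mean was. GF24516 (scaffold_13337) was the highest in body at 856 CPM, against 20.2 CPM in tubule and 0.633 CPM in hindgut. Its body level was 311 to 495 CPM in the FastBKK cold libraries, under the 683 to 797 CPM of FastBKK control, and overlapped between cold and control in SlowBKK and KATH.

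**Figure D4:**
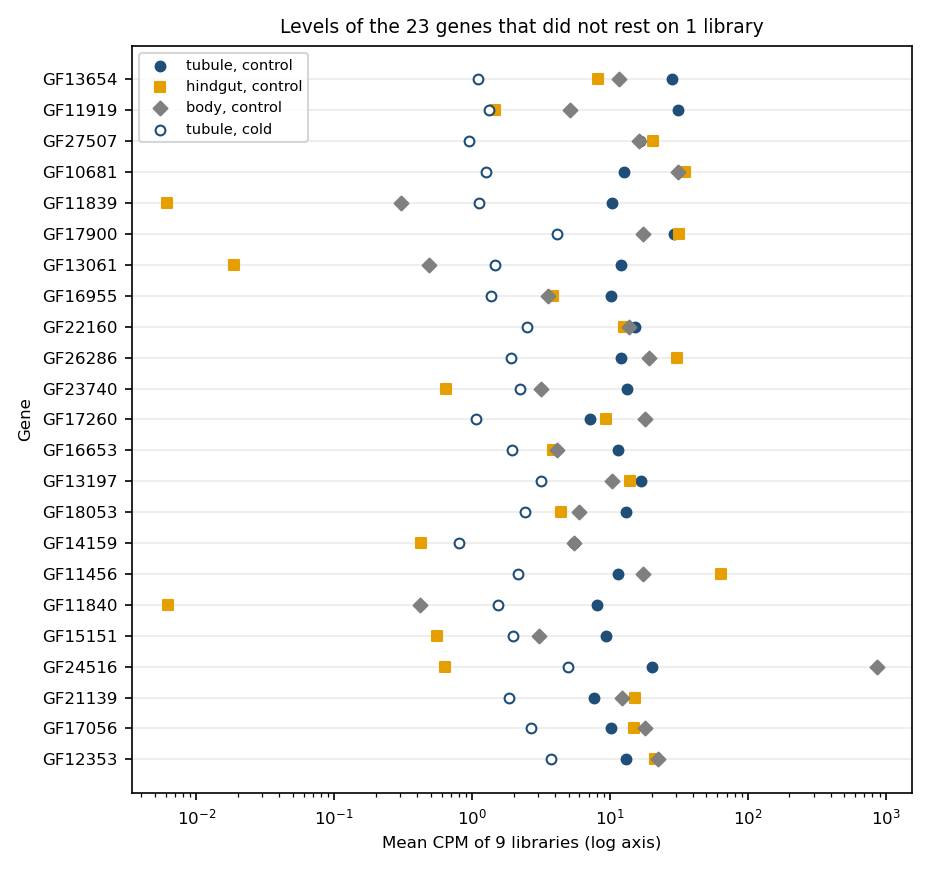
Mean CPM of 9 libraries (log axis) of the 23 genes in control tubule, control hindgut, control body and cold tubule. Cold tubule (open circles) is the lower tubule point in every row, and control hindgut and body levels range from far below to far above it, with GF11839, GF13061 and GF11840 lowest in hindgut and GF24516 highest in body.

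The lines were compared at 22 °C with an edgeR quasi-likelihood test of all genes in each tissue (two-sided, Benjamini-Hochberg adjusted p under 0.05). All 40 members passed the filter on low counts in tubule and body and 32 did in hindgut. The selection used the mean of the same 9 control tubule libraries. GF26286 and GF12353 reached its minimum of 5 CPM in 1 line only. Of the 17 genes high in KATH control replicate 1, all but GF18844 reached it through that library. GF18844 averaged 5.77 CPM without it, but its D was then -0.51, so its place in the list rested on that library too. Tubule line differences of these 19 genes thus restate how they were picked and are given without a test. Among the other 21 genes, FastBKK and SlowBKK differed in 3 in tubule, where 7.0% of all genes tested differed. KATH and FastBKK differed in 5, where 11.9% did, and KATH and SlowBKK in 8, where 13.6% did. Without KATH control replicate 1 the counts were 2, 3 and 5. Over all 40 members and all libraries they were 4, 7 and 9. Those counts include differences fixed by the selection and serve only as the base of the alternatives given at the end. Replicates are separate pools per the labels, and the p-values measure only the spread between these pools.

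Between FastBKK and SlowBKK control tubule, GF13654 was higher in FastBKK. It averaged 56.8 ± 18.7 CPM and 7.92 ± 2.50 CPM (SD, n = 3 each), a log2 difference of 2.81 ± 0.41 (SE, adjusted p = 0.00109). GF24516 was lower in FastBKK, at 18.3 ± 1.9 against 33.3 ± 5.0 CPM (log2 difference -0.88 ± 0.18, adjusted p = 0.00908). GF17900 was lower in FastBKK too, at 25.4 against 48.3 CPM (log2 difference -0.95, adjusted p = 0.0421), but missed the threshold in 10 of 23 alternatives, among them the removal of any 1 control tubule library (adjusted p = 0.0511 without KATH replicate 1) and the replicate block, which gave the highest adjusted p of 0.139.

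Between KATH and FastBKK control tubule, GF24516 was lower in KATH, at 8.04, 10.5 and 8.15 CPM against 20.4, 16.7 and 17.8 CPM (log2 difference -1.05 ± 0.18, adjusted p = 0.0019). GF13197 and GF13654 were lower in KATH, by log2 differences of -1.47 (adjusted p = 0.0101) and -1.58 (adjusted p = 0.0167). The call of GF24516 held in all 23 alternatives, while that of GF13654 was lost in 4 (adjusted p = 0.0799 without KATH control replicate 5, 0.0646 without KATH control replicate 4, 0.061 without FastBKK control replicate 2 and 0.0569 with only the groups compared) and that of GF13197 in 2 (adjusted p = 0.0553 with the replicate block and 0.0518 without KATH control replicate 4). GF17900 and GF11456 were called as well, but lost the call in 15 and 4 alternatives, with adjusted p of 0.088 and 0.0714 without KATH control replicate 1.

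Between KATH and SlowBKK control tubule, GF24516 gave the smallest p of all, with 33.0, 28.4 and 38.4 CPM in SlowBKK and none of the KATH values above 10.5 CPM (log2 difference -1.93 ± 0.19, adjusted p = 1.43e-05). GF13197 was lower in KATH, with 36.9, 36.5 and 18.2 CPM in SlowBKK (log2 difference -2.56 ± 0.35, adjusted p = 0.000207). GF17900 was lower in KATH, at 14.6, 14.1 and 12.3 CPM against 48.4, 43.4 and 53.2 CPM (log2 difference -1.85 ± 0.27, adjusted p = 0.00038), and GF16653 was lower as well, at 9.20 against 14.3 CPM (log2 difference -0.66 ± 0.15, adjusted p = 0.00768). These 4 calls held in all 23 alternatives. GF17260, GF11456, GF18053 and GF13654 were called as well, but lost the call in 2, 6, 15 and 16 alternatives, and the adjusted p of the last 3 was 0.0865, 0.109 and 0.213 without KATH control replicate 1.

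GF24516 and GF17900 therefore had the same order of control tubule levels, SlowBKK highest, FastBKK next and KATH lowest, with each step called (for GF17900 only the step from SlowBKK to KATH in every alternative), and GF13197 had that order with only the steps to KATH called. In these genes the highest control tubule level was in the line labelled sensitive, whereas GF13654 was highest in FastBKK.

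Line differences were also called in hindgut and body, and they did not always match those in tubule. In hindgut, FastBKK and SlowBKK differed in 5 of 32 tested members (6.0% of all genes tested), KATH and FastBKK in 4 (9.7%) and KATH and SlowBKK in 5 (9.94%). GF26286 was higher in FastBKK than SlowBKK hindgut, at 22.3, 45.6 and 52.3 CPM against 4.36, 4.90 and 2.71 CPM (log2 difference 3.25 ± 0.43, adjusted p = 0.000708). In KATH hindgut it measured 53.2, 45.5 and 42.4 CPM, above SlowBKK by a log2 difference of 3.56 ± 0.43 (adjusted p = 0.000123). GF26286 was thus under 1 CPM in KATH tubule and above 40 CPM in KATH hindgut, while FastBKK held it in both organs, a difference between tissues that was not tested. GF12353 was higher in KATH than FastBKK hindgut, at 35.1, 35.5 and 35.4 CPM against 18.4, 9.74 and 14.2 CPM (log2 difference 1.40 ± 0.21, adjusted p = 0.000708).

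In body, FastBKK and SlowBKK differed in 4 of 40 members (14.2% of all genes tested), KATH and FastBKK in 19 (33.5%) and KATH and SlowBKK in 17 (37.7%). GF26286 had the smallest p between FastBKK and SlowBKK, at 24.0, 19.9 and 19.9 CPM against 11.8, 11.3 and 12.3 CPM (log2 difference 0.88 ± 0.15, adjusted p = 0.000921). GF13197 had it in both comparisons with KATH, at 5.94 ± 1.01 CPM in KATH, 13.7 ± 1.2 CPM in FastBKK (log2 difference -1.25 ± 0.13, adjusted p = 2.62e-06) and 11.5 ± 0.8 CPM in SlowBKK (log2 difference -0.98 ± 0.13, adjusted p = 3.58e-05). In hindgut GF13197 averaged 6.97 ± 4.17 CPM in KATH, 16.5 ± 3.24 CPM in FastBKK and 18.2 ± 4.07 CPM in SlowBKK. The log2 difference of KATH from FastBKK there was -1.19 (adjusted p = 0.01998). GF13197 was thus lower in KATH than in either Bangkok line in all 3 tissues, each by a called difference in the main fit. Its tubule call between KATH and FastBKK was lost in 2 of 23 alternatives. Its hindgut calls were not followed through the alternatives.

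The edgeR interaction test, which asks whether the tubule cold response differs between lines, called no member. It called 0 of 40 for FastBKK against SlowBKK, where 0.671% of all genes were called, 0 of 40 for KATH against FastBKK (0.227%) and 0 of 40 for KATH against SlowBKK (2.4%). At an unadjusted p under 0.05 there were 8, 3 and 6 members, beside 15.1%, 12.4% and 17.8% of all genes, and DESeq2 called 5, 0 and 3, beside 4.57%, 2.26% and 6.87% of the genes to which it gave an adjusted p. Among the 21 genes above, those at an unadjusted p under 0.05 were 6, 1 and 5, and DESeq2 called 4 (GF13061, GF13654, GF21139 and GF24516), 0 and 2 (GF17900 and GF24516). GF17900 came nearest for KATH against SlowBKK, with an interaction of 1.41 ± 0.38 on the log2 scale (adjusted p = 0.0663), and GF24516 for FastBKK against SlowBKK, with 1.02 ± 0.26 (adjusted p = 0.0816).

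The 17 genes that rested on 1 library were GF25148, GF25149, GF21534, GF27538, GF24436, GF27434, GF17271, GF10667, GF11612, GF10663, GF10666, GF12918, GF14369, GF12546, GF12363, GF18844 and GF11611. They include the 4 lowest D of the list and, as consecutive symbols on 1 scaffold, the pairs GF25148 with GF25149, GF10666 with GF10667 and GF11611 with GF11612. Of the 17, 8 lie on scaffold_13337, which holds 18.8% of all genes, and 5 on scaffold_13266, which holds 19.1%. Their median length was 881 bases.

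GF25148 had the lowest D, -5.98. Its control tubule level was 358 CPM in KATH replicate 1 and 0.304 and 0.0248 CPM in the other KATH libraries, 0.378, 9.11 and 0 CPM in FastBKK, and 0.900, 11.5 and 0.534 CPM in SlowBKK. Its cold values were 0.334, 0.122 and 0.111 CPM in FastBKK, 0.0521, 0.348 and 0.162 CPM in SlowBKK, and 0.0292, 0.286 and 0.144 CPM in KATH. Without KATH control replicate 1, D was -2.31, carried by FastBKK replicate 3 and SlowBKK replicate 2, and the remaining control libraries overlapped the cold ones.

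GF25149 repeated this picture with 184 CPM in KATH control replicate 1, 10.6 CPM in SlowBKK control replicate 2, 3.00 CPM in FastBKK control replicate 3 and at most 0.475 CPM in each of the other control libraries. GF21534 had 130.5 CPM in KATH control replicate 1 and at most 4.42 CPM in any other control library, and its D went from -4.91 to -1.24 without it. GF27538 went from -4.52 to -1.14, GF24436 from -4.01 to -1.61, and GF27434 from -3.57 to -0.67. For GF17271, GF10667 and GF11612, with 106.7, 98.0 and 104 CPM in that library, D went from -3.46 to -0.32, from -3.37 to -0.84 and from -3.37 to -1.19. For GF10666, GF12363 and GF11611, D turned above 0 without it, to 0.02, 0.71 and 1.35.

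GF24436 was the only one of the 17 with all 9 cold below all 9 control tubule libraries. Its control values outside KATH replicate 1 (62.5 CPM) were 0.145 to 6.11 CPM, and its cold values were at most 0.108 CPM, near the worth of 3 counts.

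Summed over the 17 genes, the tubule libraries ranged from 0.609 to 2297 CPM. KATH control replicate 1 held 2297 CPM, SlowBKK cold replicate 3 held 145 CPM, SlowBKK control replicate 2 held 142 CPM, FastBKK control replicate 3 held 120 CPM, FastBKK cold replicate 3 held 41.8 CPM, KATH cold replicate 3 held 30.9 CPM and SlowBKK control replicate 1 held 13.9 CPM. The other 11 libraries held 0.609 to 5.84 CPM. High values thus occurred in single libraries of all 3 lines and of both treatments, and replicates of 1 group differed by orders of magnitude.

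These 17 genes were abundant in body. Their control body means were 185 to 3720.3 CPM (median 808), while 16 of the 17 had control hindgut means under 1 CPM, the exception being GF18844 at 11.9 CPM. The body libraries held 7078 to 22252 CPM of the 17 in sum, and the highest hindgut library, SlowBKK cold replicate 4, held 107 CPM. In KATH control tubule replicate 1 the genes stood at 1.99% to 68.8% of their KATH control body mean, with a median of 18.03%.

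Of the 17, 16 were among 795 genes that averaged at least 50 CPM in body with a median under 1 CPM in both tubule and hindgut, a class formed from these data. Over that class the median level in KATH control tubule replicate 1 was 0.055% of the body mean, below the 0.675% of FastBKK cold replicate 3. In KATH control replicate 1, 36 of the 795 genes were at 5% or more of their body mean, 15 of them members, and in the other 17 tubule libraries the most was 30 genes. Its high genes were thus a small set of the genes restricted to body. In all, 32 genes were at 20 CPM or more there with a median under 1 CPM in the other 8 control libraries, and 16 of these were members. Over 283 genes at 50 CPM or more in hindgut and a median under 1 CPM in tubule, the median was 0.313% of the hindgut mean, with 1.4% as the highest tubule value, in KATH cold replicate 4.

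The counts of GF25148 and GF10666 stood in a ratio of 1.15 in KATH control tubule replicate 1, within the range of 0.83 to 1.21 in control body libraries. The ratio was 0.84 in FastBKK control replicate 3, within that range, and 0.623 in SlowBKK control replicate 2, below it. It was 0.0055 in FastBKK cold replicate 3 and 0.032 in SlowBKK cold replicate 3, below the 0.524 to 1.19 of cold body libraries. No other pair is given here, and the members did not all keep their body proportions. In KATH control tubule replicate 1, GF25149 stood at 68.8% of its KATH control body mean and GF12918 at 1.99%. GF25148 stood at 28.8% and GF10666 at 25.2%. The part of RNA from other tissues in these levels was not tested.

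**Figure D5:**
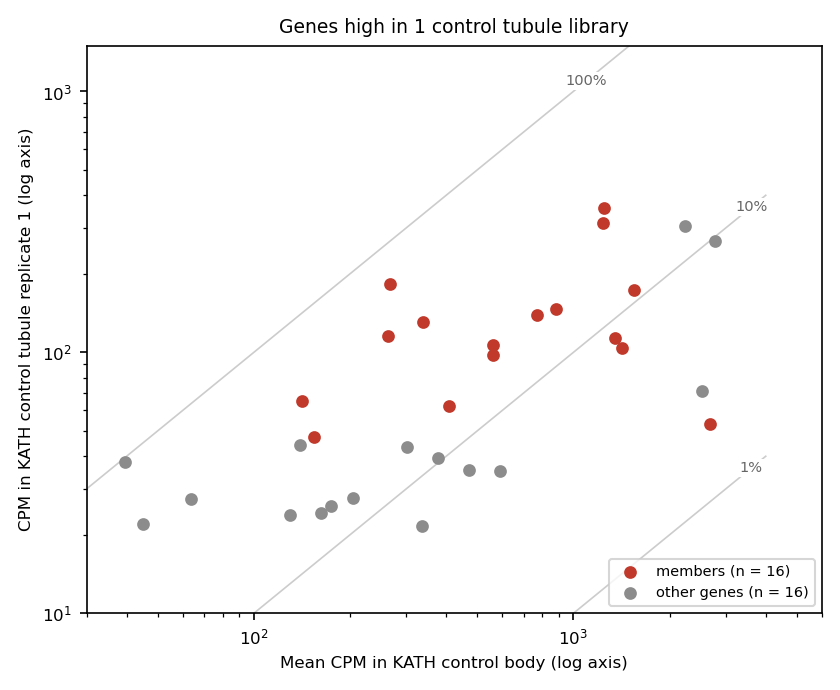
CPM in KATH control tubule replicate 1 against mean CPM in KATH control body (both log axes) for the 32 genes at 20 CPM or more in that library with a median under 1 CPM in the other 8 control tubule libraries. Lines mark 1%, 10% and 100% of the body level, and the 16 members (red) lie between 1.99% and 68.8%.

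In body itself the 17 genes had D between -3.17 and 0.65, with a median of -0.96, beside a median of 0.02 over genes at 1 CPM or more in body. Of the 17, 16 were below 0, and the share of all genes below 0 was not computed. All 9 cold body libraries lay below all 9 control body libraries for 3 of the 17, against 9.3% of genes at 1 CPM or more. These were GF21534 (558 and 61.4 CPM), GF12918 and GF14369 (844 and 123 CPM). The selection required tubule D to be lower than body D. In body, KATH and FastBKK differed in 10 of the 17, where 33.5% of all genes tested differed, and 7 of the 10 were lower in KATH, which for GF21534 meant 338 against 794 CPM (log2 difference -1.28 ± 0.18, adjusted p = 5.7e-05). KATH and SlowBKK differed in 6 of the 17, where 37.7% of all genes did, with 3 higher and 3 lower in KATH. FastBKK and SlowBKK differed in 1 of the 17, where 14.2% did.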

How the data were processed

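The authors deposited raw read counts per gene and library, with gene length and scaffold, per the file headers. The aligner, counter, build and strand setting are not given in the sources used here, and FastQC 0.11.9 is named in the submitters' processing notes. CPM was computed from column sums. The members, lists and tests were chosen with earlier results of these data known. Lists by gene function, tubule markers and motifs could not be applied, because no identifier matched the reference table.

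Each tissue (18 libraries) was fitted by itself in edgeR 4.0.16 (R 4.3.3) with 1 coefficient per line and treatment, TMM scaling, filterByExpr and quasi-likelihood F tests, adjusted by Benjamini-Hochberg over all genes of a contrast. The SE of a log2 difference was its absolute value divided by the square root of the F statistic, not a separately fitted error. The fit was checked on simulated data. Alternatives were DESeq2 1.42.0, DESeq2 size factors, no filter, only the groups compared, a replicate block, each library left out, other added constants, TMM-scaled CPM and medians. Replicates of a group differed by far more than sampling noise (chi-square per gene at least 11.0), so none was counted as deposited more than once. Named genes were the 12 lowest D, the called members with the smallest p, the extremes of level, overlapping members, consecutive symbols and the ends of the list; other genes named were chosen after their values were seen. The counts over 21 of the 23 genes, those that reached the control minimum in more than 1 line, were added after the results were seen. Floors of 3 counts cover counting error only.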

Additional observations from a re-analysis of the deposited data

How the results depend on the processing

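The list itself depended most on how libraries were averaged: 19 of the 40 members were selected again with medians in place of means, 23 to 40 when 1 tubule library was left out (23 without KATH control replicate 1), 39 with TMM-scaled CPM and 37 with either other added constant. Between FastBKK and SlowBKK, called members went from 4 to 7 in body with DESeq2 and to 7 with only the groups compared, from 4 to 7 in tubule with DESeq2, from 5 to 3 in hindgut with only the groups compared, and from 0 to 5 interactions with DESeq2. Between KATH and FastBKK hindgut the count went from 4 to 2 with only the groups compared. KATH against SlowBKK interactions went from 0 to 3 with DESeq2 and to 2 with only the groups compared. With 1 library left out the counts ranged in tubule over 3 to 6 (FastBKK against SlowBKK), 5 to 7 (KATH against FastBKK) and 5 to 10 (KATH against SlowBKK, 5 without SlowBKK control replicate 2), in hindgut over 2 to 6, 2 to 5 and 4 to 6, in body over 3 to 6, 15 to 21 and 11 to 20 (11 without SlowBKK control replicate 2), and for interactions over 0 to 4 (4 without FastBKK cold replicate 1), 0 to 1 (1 without that library or KATH cold replicate 4) and 0 to 1 (1 without SlowBKK cold replicate 2). The hindgut count between FastBKK and SlowBKK fell to 2 without FastBKK control replicate 3, SlowBKK replicate 1 or SlowBKK replicate 2 and to 3 without FastBKK replicate 4 or SlowBKK replicate 5, and that between KATH and FastBKK to 2 without KATH control replicate 5. The correlation of deviations between same-numbered replicates was over 0.1 in 9 of 26 pairs in tubule (-0.284 to 0.375), 12 of 30 in hindgut (-0.224 to 0.621) and 4 of 33 in body (-0.378 to 0.199). Median correlations of same-numbered pairs were 0.038 in tubule, 0.065 in hindgut and -0.009 in body, beside 0.0004, -0.013 and 0.0006 for other pairs. In no tissue was every pair over 0.1, and by that rule the samples were taken to share only a number. Whether same-numbered libraries were handled together was not tested. With a replicate block the counts were 4, 6 and 6 in tubule, 1, 2 and 4 in hindgut, 4, 15 and 13 in body, and 0, 0 and 1 for interactions. Over the 25 differences between lines that were followed through the alternatives, none reversed and 498 alternative values stayed on their side of the threshold. A further 74 lost it (GF17900, GF13654, GF18053, GF11456, GF13197 and GF17260, all in tubule) and 3 gained it (GF17900 and GF24516, interactions). The causes of these shifts were not tested.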
